A study of Mus musculus with 18 samples.

Results

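Hippocampal RNA-seq of defeated mice, whether or not they had trained, was compared with that of control mice. The 12 defeated libraries were the 6 from mice under chronic social defeat stress (CSDS) and the 6 from mice that had CSDS and aerobic exercise. They were set against 5 of the 6 control libraries, so 17 of the 18 libraries of the series were used. Control replicate 2 was left out because of its neocortical marker levels. The contrast was the mean of the 2 defeated group means minus the control mean, and attention went to genes that differed from control in the same direction in both defeated groups. Both group comparisons share the 5 controls, so a shared direction is not independent evidence.

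All mice were adolescent C57BL/6J males of WT genotype, and each library came from 1 mouse. Controls were untreated. CSDS followed the resident-intruder procedure, in which a mouse is repeatedly placed with an aggressive resident. In the exercise group training began a week ahead of the defeat sessions and went on alongside them. No group trained without defeat, so training and defeat cannot be told apart in the exercise group's difference from control. Every library carries the same batch label. Dissection was of bulk hippocampus, in which fewer cells of a type and less RNA per cell cannot be told apart.

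The hippocampus reads the state of the stress axis through corticosteroid receptors, which bind DNA at glucocorticoid response elements and switch on genes such as Sgk1, Fkbp5 and Zbtb16. A separate set of genes, the immediate early genes, is transcribed within minutes of neuronal firing, partly through CREB, a factor that binds the cyclic AMP response element, and through serum response factor. Repeated defeat is widely used as a rodent model of depression, and both gene sets are commonly measured in it.

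Total estimated counts ran from 18911100 to 24136600 per library, rounded to 6 digits, and 16833 genes were tested. The tissue label was checked against markers of hippocampal fields: Prox1 and C1ql2 of dentate granule cells, Wfs1 and Fibcd1 of CA1, and Rgs14 of CA2. In CPM (counts scaled to library size), Prox1 lay at 83.5 to 145 in the 17 libraries against 10.4 in control replicate 2, C1ql2 at 40.7 to 142 against 0.409 and Fibcd1 at 107 to 344 against 11.3. The gap was smaller for Wfs1 (75.7 to 225 against 67.2) and Rgs14 (58.1 to 157 against 36.0). Thalamic neuron markers (24 tested) were high in control replicates 1 and 3 (mean log2 CPM 5.06 and 5.83) and exercise replicates 3 and 6 (5.25 and 6.38), and at 3.42 to 3.97 in the other 13 libraries. Choroid plexus genes were high in all 5 controls (4.78 to 6.12) but low, at 1.5 to 2.34, in CSDS replicates 2, 4 and 6 and exercise replicates 1, 4 and 5. Their part in the results was not tested beyond the values given beside them.

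With predicted genes left aside, the lower genes of smallest p were Sgk1, a kinase that glucocorticoids induce, Plekhf1 and Errfi1. The first 12 by p also held the activity-induced genes Arl4d, Fos, Egr2 and Nr4a1. The higher genes of smallest p were the potassium channel gene Kcnj2 and the long noncoding RNAs Malat1 and Pantr2, and the first 12 also held Pnisr, Kcnq1ot1, Drd1 and Meg3. None passed the test across all genes: edgeR's quasi-likelihood test with Benjamini-Hochberg adjustment called 0 of 16833 genes (0%) in the pooled contrast, where the smallest adjusted p was 0.236. At an unadjusted p under 0.05 there were 691 genes (4.11%). That is below the share of 0.05 that such a threshold passes on average where no gene differs. Of the 691, 506 were higher (3.01%) and 185 lower (1.1%) in defeated mice. That split was 380 and 289 under plain library size scaling, and 391 and 418 without exercise replicate 6. DESeq2 called 13 genes (0.0772%), 9 higher (0.0535%) and 4 lower (0.0238%), and limma voom called 0. Fold changes and adjusted p-values below are from edgeR unless DESeq2 is named, and fold changes are given on the log2 scale with their SE. Levels written with ± are mean and SD over 5 control, 6 CSDS or 6 exercised mice.

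Of the 691 genes, 685 (4.07% of those tested) had the same sign against control in both defeated groups, 503 higher (2.99%) and 182 lower (1.08%). Because the pooled contrast averages the same 2 comparisons, selection by it favours a shared sign. An unadjusted p under 0.05 in each defeated group separately, with the same sign, was reached by 115 genes (0.683%), 94 higher (0.558%) and 21 lower (0.125%). The libraries of defeated mice did not overlap those of the 5 controls at all for 4 genes (0.0238%). Pnisr, Gm42664 and the unnamed ENSMUSG00000121053 were above (0.0178%) and 4930539J05Rik was below (0.00594%); the last 3 were named after their values were seen. Under plain library size scaling the count was 1 above and 5 below, and with a filter of 1 CPM in 5 libraries 1 above and 3 below. Against control, edgeR called 0 genes in CSDS (0%) and 0 with exercise (0%), with 401 (2.38%) and 1974 (11.7%) at an unadjusted p under 0.05.

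Promoter sequences are shown for 4 of the lower genes, because the factors named above bind near the starts of glucocorticoid- and activity-induced genes. Each is the 250 bases before a transcription start on the plus strand of GRCm38.p6, from RefSeq. The Sgk1 window is chr10:21993640-21993889, upstream of 1 of 6 annotated starts, and its capitals mark the single match to the palindromic glucocorticoid response element (AGAACA, any 3 bases, TGTTCT), which ends 174 bases before the start. In the windows of Fos (chr12:85473640-85473889), Nr4a1 (chr15:101266596-101266845) and Arl4d (chr11:101665291-101665540), capitals mark the core of the cyclic AMP response element, TGACG, or its reverse complement CGTCA. In Arl4d the match nearest the start is the full element TGACGTCA, which holds 2 overlapping cores.
Sgk1: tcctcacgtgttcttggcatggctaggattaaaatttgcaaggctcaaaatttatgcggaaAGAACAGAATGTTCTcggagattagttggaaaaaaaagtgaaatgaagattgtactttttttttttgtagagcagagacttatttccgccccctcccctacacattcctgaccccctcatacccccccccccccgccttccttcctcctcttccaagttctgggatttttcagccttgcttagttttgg
Fos: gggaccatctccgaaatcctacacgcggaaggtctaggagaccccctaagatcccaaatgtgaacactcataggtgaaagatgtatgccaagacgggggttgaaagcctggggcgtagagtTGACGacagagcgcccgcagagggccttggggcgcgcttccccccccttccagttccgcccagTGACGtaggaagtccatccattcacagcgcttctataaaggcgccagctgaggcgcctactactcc
Nr4a1: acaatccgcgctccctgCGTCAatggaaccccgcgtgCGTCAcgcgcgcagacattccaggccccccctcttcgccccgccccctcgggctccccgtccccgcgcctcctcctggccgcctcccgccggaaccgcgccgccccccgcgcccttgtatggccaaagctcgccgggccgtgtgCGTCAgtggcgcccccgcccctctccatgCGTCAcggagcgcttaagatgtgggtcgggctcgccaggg
Arl4d: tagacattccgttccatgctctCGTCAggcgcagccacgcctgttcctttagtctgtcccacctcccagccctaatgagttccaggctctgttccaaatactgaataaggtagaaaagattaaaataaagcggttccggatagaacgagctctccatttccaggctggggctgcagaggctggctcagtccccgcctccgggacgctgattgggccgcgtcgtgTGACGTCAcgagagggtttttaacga

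Motifs were searched on both strands in the 250 bases before each annotated start, so a gene with several starts had more sequence searched. The full glucocorticoid element was present in 1 of the 12049 tested genes with a promoter in the table (0.0083%), which is Sgk1 itself. The core TGACG was present in 6 of 11 lower named genes (54.5%), in 5 of 10 higher named genes (50%) and in 28.8% of all genes. The full TGACGTCA was present in 2 of 11 (18.2%), 1 of 10 (10%) and 2.91%. The single arm AGAACA of the glucocorticoid element was present in 2 of 11, 1 of 10 and 13.2%, and any of 3 serum response element variants in 0, 0 and 0.108%. Sequence farther than 250 bases from a start was not searched, so a count of 0 cannot show that a gene lacks the element. A match is a description of letters only, and the TGACG core was above its overall share in both directions of named genes.

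Sgk1 stood at 162, 199, 170, 108 and 127 CPM in control replicates 1, 3, 4, 5 and 6. In CSDS mice it ranged from 69.9 to 110 CPM with a median of 79.6, and in exercised mice from 57.2 to 121 CPM with a median of 75.0. Of the controls, 4 lay above every defeated mouse, and 9 of the 12 defeated mice lay below every control. The log2 difference was -0.88 ± 0.16 pooled (adjusted p = 0.236), -0.82 ± 0.19 in CSDS and -0.94 ± 0.19 with exercise. DESeq2 gave an adjusted p of 0.00204, and edgeR called Sgk1 when exercise replicate 5, the highest defeated library, was left out (adjusted p = 0.0254). Control replicate 3, the highest for Sgk1, was also high in thalamic markers, and without the 4 libraries high in those markers the difference was -0.66. With thalamic marker levels as a covariate it was -0.86.

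Plekhf1, which encodes a phosphoinositide-binding protein of endosomes and lysosomes, was at 7.16, 6.31, 9.25, 6.29 and 5.18 CPM in controls. It ranged from 3.38 to 5.51 CPM (median 4.36) in CSDS mice and from 2.59 to 4.2 CPM (median 3.69) in exercised mice. Only CSDS replicate 6 reached into the control range. The pooled difference was -0.78 ± 0.14 (adjusted p = 0.236), and DESeq2 gave an adjusted p of 0.00204. Errfi1, an inhibitor of the EGF receptor that glucocorticoids and growth factors induce, was at 55.3, 56.7, 53.8, 58.5 and 49.0 CPM in controls. Its defeated mice ran from 37.2 to 49.8 CPM with a median of 40.8, and 11 of 12 lay below every control. The pooled difference was small but even between groups, at -0.37 ± 0.08 (-0.40 ± 0.09 in CSDS and -0.35 ± 0.09 with exercise, pooled adjusted p = 0.475, DESeq2 0.0253).

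**Figure D1:**
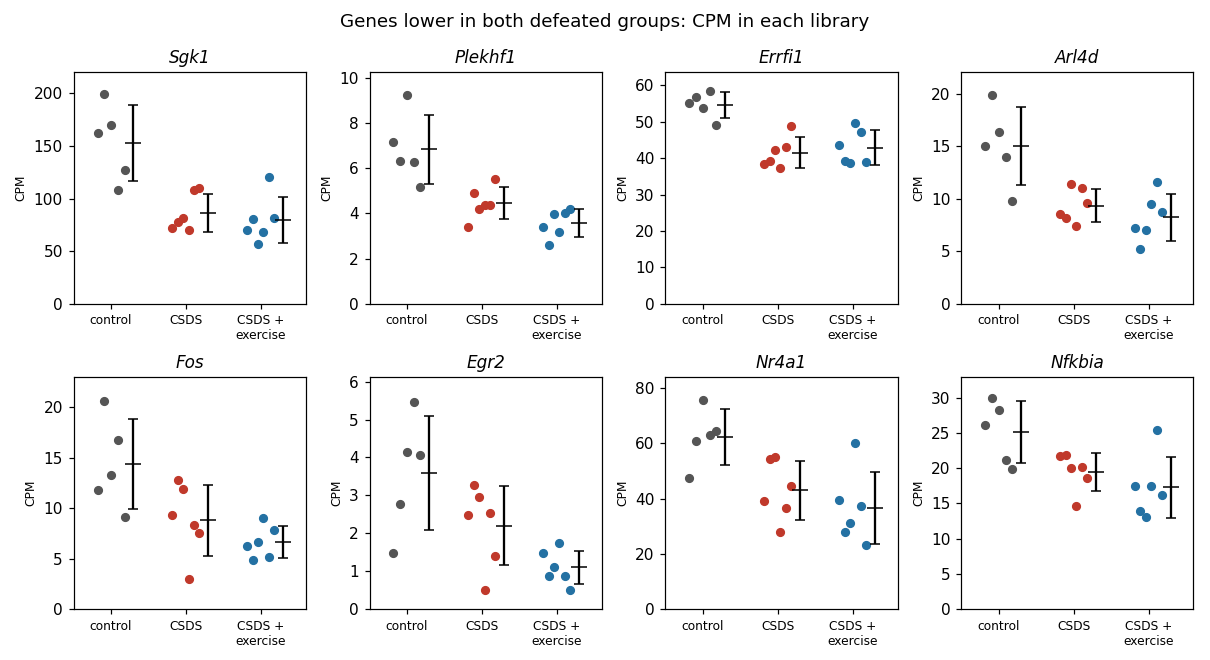
CPM in each library (points) with the mean and SD (bars) for 8 genes lower in both defeated groups, in 5 control, 6 CSDS and 6 CSDS with exercise mice. Most controls lie above most defeated mice, with 4 of 5 controls above every defeated mouse for Sgk1, Plekhf1, Errfi1, Arl4d and Nr4a1.

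Arl4d, Fos, Egr2 and Nr4a1 were the activity-induced genes among the 12 lower named genes. Arl4d, a small GTPase gene, was at 15.0, 19.9, 16.4, 14.0 and 9.76 CPM in controls, 7.37 to 11.4 CPM (median 9.08) in CSDS mice and 5.23 to 11.6 CPM (median 7.98) in exercised mice. Control replicate 6 was the one control inside the defeated range, and the pooled difference was -0.77 ± 0.16 (adjusted p = 0.475, DESeq2 0.0253). Fos, a subunit of the AP-1 transcription factor, was at 11.8, 20.6, 13.3, 16.8 and 9.17 CPM in controls, 2.97 to 12.8 CPM (median 8.81) in CSDS mice and 4.87 to 9.05 CPM (median 6.46) in exercised mice. All 6 exercised mice lay below every control, while the CSDS mice overlapped them. The pooled difference was -0.91 ± 0.24 (adjusted p = 0.753).

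Egr2, a zinc finger transcription factor, was scarce: 1.49, 2.78, 4.14, 5.47 and 4.07 CPM in controls, 0.510 to 3.28 CPM (median 2.5) in CSDS mice and 0.513 to 1.74 CPM (median 0.997) in exercised mice. Its difference was -0.71 ± 0.39 in CSDS and -1.70 ± 0.40 with exercise (pooled -1.21 ± 0.33, adjusted p = 0.842). Nr4a1, an orphan nuclear receptor, was at 47.6, 60.8, 75.8, 62.9 and 64.5 CPM in controls, 28.0 to 55.0 CPM (median 42.0) in CSDS mice and 23 to 60.2 CPM (median 34.1) in exercised mice. Control replicate 1 was the one control inside the defeated range, which reached its top in exercise replicate 4, and the pooled difference was -0.66 ± 0.18 (adjusted p = 0.842). With control replicate 2 included the differences were -1.39 for Fos and -1.84 for Egr2.

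The other lower genes by smallest p were Tmem238, Pxdc1, Ajuba, a LIM-domain scaffold, and Zbtb7b, a zinc finger factor. Their pooled differences were -0.53 ± 0.14, -0.38 ± 0.10, -0.57 ± 0.16 and -0.40 ± 0.12, with adjusted p from 0.753 to 0.911. Tmem238 and Pxdc1 were at -0.73 ± 0.16 and -0.59 ± 0.12 in exercised mice and at -0.34 ± 0.16 and -0.17 ± 0.12 in CSDS mice. The mitochondrial transhydrogenase gene Nnt also ranked here, but 2 gene identifiers share its symbol. The first was lower and the second higher in many defeated libraries, and their sum was 18.5 ± 2.54 CPM (SD, n = 5) in controls, 17.9 ± 2.98 (n = 6) in CSDS and 17.2 ± 1.49 (n = 6) with exercise. The low value of the first identifier thus went with a different split of reads between the identifiers.

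Among the higher genes, Kcnj2, which encodes an inwardly rectifying potassium channel, was at 6.34, 7.37, 5.78, 8.38 and 6.45 CPM in controls. It ran from 7.92 to 14.0 CPM (median 10.3) in CSDS mice and from 8.82 to 13.8 CPM (median 12.0) in exercised mice, with 10 of 12 defeated mice above every control. The pooled difference was 0.66 ± 0.14 (adjusted p = 0.475, DESeq2 0.0247), and it was 0.39 with control replicate 2 included. Drd1, the D1 dopamine receptor, was at 2.63, 1.99, 3.39, 3.37 and 2.80 CPM in controls, with 11 of 12 defeated mice above all of them. Its medians were 4.50 CPM in CSDS and 4.86 CPM with exercise, and its pooled difference was 0.81 ± 0.20 (adjusted p = 0.606). With control replicate 2 included the Drd1 difference was 0.34.

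Long noncoding RNAs were 5 of the 12 higher named genes. Malat1, a nuclear RNA of splicing speckles, was at 157, 100, 97.0, 104 and 95.3 CPM in controls, 98.5 to 228 CPM (median 180) in CSDS mice and 175 to 418 CPM (median 234) in exercised mice. All 6 exercised mice lay above every control, and 5 of the 6 CSDS mice did so. The pooled difference was 0.91 ± 0.20 (adjusted p = 0.475, DESeq2 0.0156), with 0.64 ± 0.22 in CSDS and 1.18 ± 0.22 with exercise. Meg3, an imprinted RNA, was at 355, 239, 211, 244 and 257 CPM in controls, 318 to 730 CPM (median 380) in CSDS mice and 367 to 1164 CPM (median 553) in exercised mice. Here 10 of 12 defeated mice exceeded every control, and the pooled difference was 1.00 ± 0.25 (adjusted p = 0.722, DESeq2 0.0413).

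Kcnq1ot1 and Snhg14 are imprinted transcripts that run antisense to protein-coding genes, and Pantr2 lies beside a POU factor gene. Kcnq1ot1 was at 3.99 ± 0.433 CPM in 5 controls, 5.35 ± 0.798 in 6 CSDS mice and 7.98 ± 2.66 in 6 exercised mice (pooled 0.71 ± 0.17, adjusted p = 0.569). Snhg14 was at 19.4 ± 2.09, 24.7 ± 4.78 and 37.2 ± 12.4 CPM (0.64 ± 0.17, adjusted p = 0.753), and Pantr2 at 1.10 ± 0.246, 1.89 ± 0.422 and 2.03 ± 0.338 CPM (0.82 ± 0.19, adjusted p = 0.495). Exercise replicate 2 was the highest library for Malat1, Meg3, Kcnq1ot1 and Snhg14 alike. Antisense transcripts are uncertain here, since the strand setting of the counting is not given in the sources used.

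Pnisr, a serine- and arginine-rich nuclear protein gene, was the one gene under the naming rule whose groups did not overlap. It was at 54.5, 49.0, 44.5, 51.5 and 51.2 CPM in controls, 58.0 to 73.4 CPM (median 62.4) in CSDS mice and 55.8 to 111 CPM (median 74.5) in exercised mice (0.50 ± 0.12, adjusted p = 0.569). Plpp5, a lipid phosphatase gene, was higher by 0.32 ± 0.09, at almost the same size in CSDS (0.33 ± 0.10) and with exercise (0.31 ± 0.10). Arhgap25, a Rac GTPase-activating protein gene, was at 2.65 ± 0.184 CPM in controls, 4.07 ± 0.537 in CSDS and 3.68 ± 0.655 with exercise (0.54 ± 0.14, adjusted p = 0.659). With control replicate 2 included its direction turned, to -0.31. Olfr986 and Vmn2r97, from receptor families whose near-identical copies make counts uncertain, were at 0.53 ± 0.15 and 0.90 ± 0.25 (adjusted p = 0.842 for each). By group, Olfr986 was at 0.27 ± 0.16 in CSDS and 0.79 ± 0.16 with exercise, and Vmn2r97 at 0.74 ± 0.28 and 1.06 ± 0.28.

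**Figure D2:**
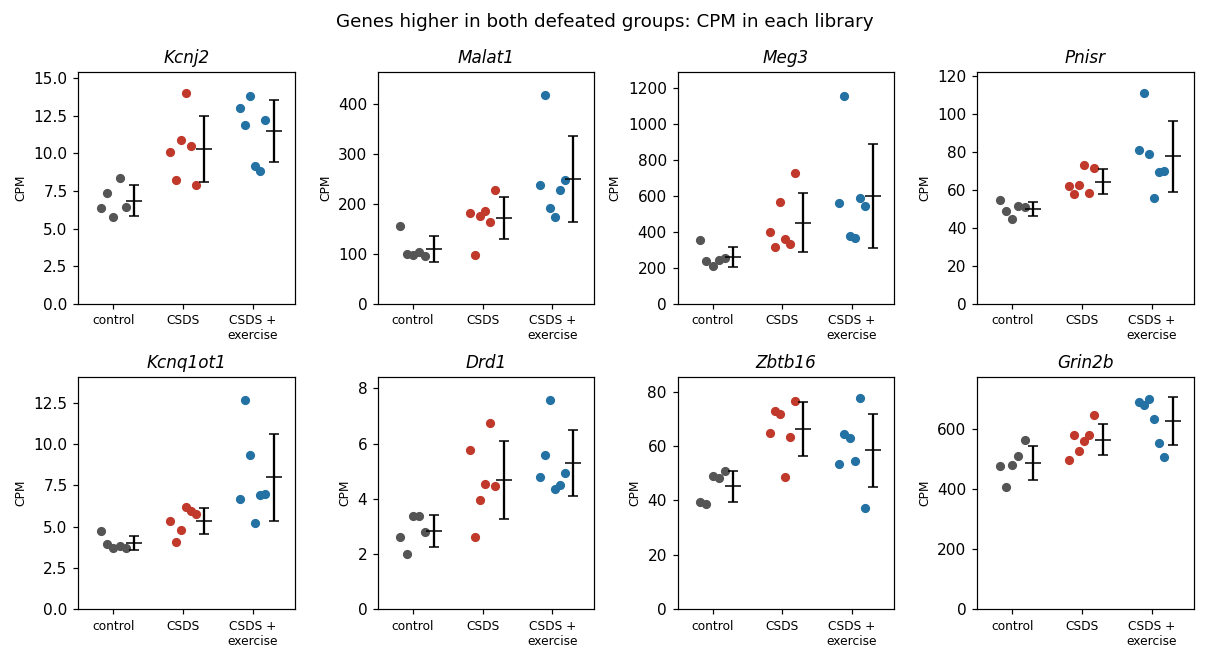
CPM in each library (points) with the mean and SD (bars) for 8 genes higher in both defeated groups, in 5 control, 6 CSDS and 6 CSDS with exercise mice. Pnisr shows no overlap between controls and defeated mice, and exercise replicate 2 is the highest point for Malat1 (418 CPM), Meg3 (1164 CPM), Pnisr (111 CPM) and Kcnq1ot1 (12.7 CPM).

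The exercise and CSDS groups were also compared directly, a contrast that uses no control. There 5 of the 12 higher and 3 of the 12 lower named genes had an unadjusted p under 0.05, beside 17.7% of all 16833 genes. The smallest adjusted p among the 24 was 0.153, and edgeR called 0 genes in that contrast (0%), against 335 by DESeq2 and 1 by limma voom. Apart from Nnt, the widest direct differences among the 24 were those of Egr2 (-0.99 ± 0.39), Snhg14 (0.59 ± 0.18), Kcnq1ot1 (0.57 ± 0.18) and Malat1 (0.54 ± 0.21). Errfi1 (0.05 ± 0.09), Plpp5 (-0.01 ± 0.09) and Pantr2 (0.10 ± 0.19) differed least between CSDS and exercise.

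**Figure D3:**
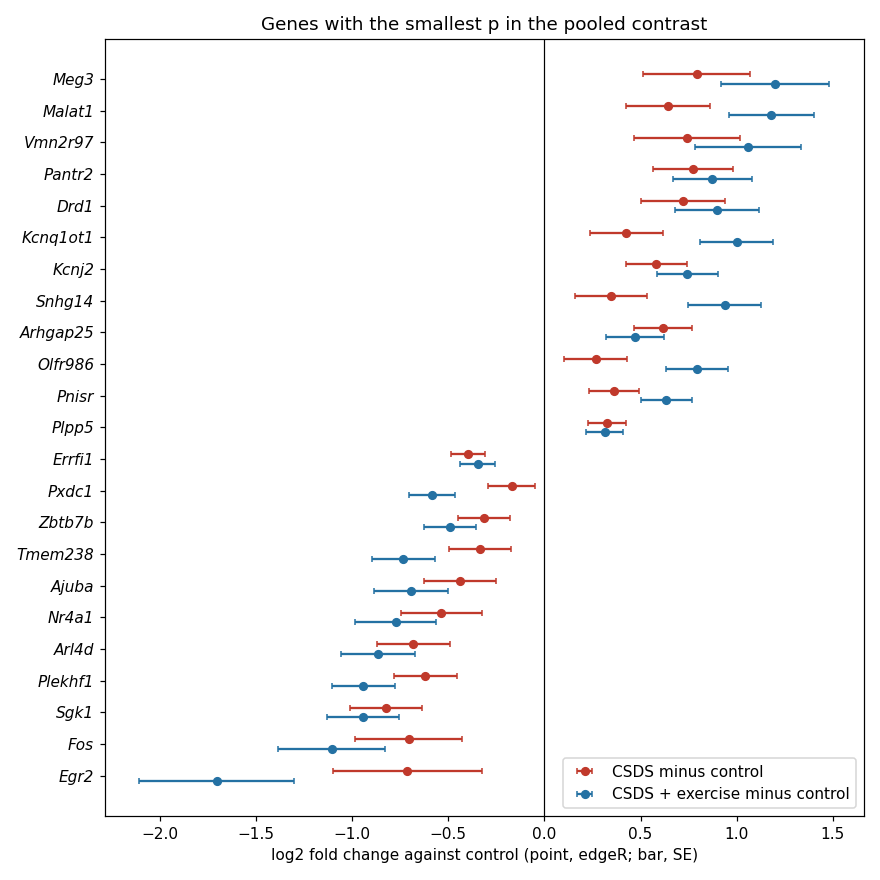
Log2 fold change against control (points) with its SE (bars) in CSDS and in CSDS with exercise, for the named genes with the smallest pooled p. Every gene has the same sign in both groups by selection, and Egr2 shows the widest gap, at -0.71 in CSDS and -1.70 with exercise; both groups share the 5 controls.

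The higher and lower genes differed in makeup. The 503 higher genes had a median transcript GC content of 45.6%, and 61.2% of those with a known type were protein coding. The 182 lower genes had a median GC of 53.4% and 93.4% were protein coding, against 50.5% and 89.0% over all genes tested. The sets also differed in abundance, with a median of 3.75 CPM for the higher genes, 8.97 CPM for the lower and 16.5 CPM for all genes tested. Over 16510 genes, which do not count as replicates of one another, the log2 difference went with GC content at Pearson r = -0.28 pooled, 0.09 in CSDS and -0.48 with exercise. Each library's own GC slope, in log2 units per 10 points of GC, was 0.07 ± 0.15 in controls, 0.11 ± 0.18 in CSDS and -0.17 ± 0.21 with exercise. The slope of defeated mice against controls gave a two-sided exact permutation p of 0.394 over 6188 regroupings (adjusted over 2 tests, 0.559). After correction for GC, Malat1 was at 0.81, Meg3 at 1.03, Kcnj2 at 0.54, Sgk1 at -0.89 and Fos at -0.89.

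The gene lists describe pathways and cell types, and edgeR called no member of any of the 38. Over all genes tested the median pooled difference was 0.01, and 53.4% of genes were above 0. For 29 lists the median lay within 0.1 of 0, for 2 it was above and for 7 below.

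Glucocorticoid-responsive genes had a median of -0.17 over 27 tested members. At an unadjusted p under 0.05, 6 were lower and 2 higher, beside 1.1% and 3.01% of all genes. The lower ones included Sgk1, Errfi1, Ddit4, an inhibitor of mTOR signalling (-0.40 ± 0.17), and Nfkbia, the inhibitor of NF-kappa B (-0.45 ± 0.14). Zbtb16, a transcription factor that glucocorticoids induce, went the other way, at 45.2 ± 5.70 CPM in controls, 66.2 ± 10.02 in CSDS and 58.4 ± 13.5 with exercise (0.46 ± 0.14, adjusted p = 0.937). Fkbp5, the chaperone that dampens the glucocorticoid receptor, was at 90.8 ± 10.5, 99.1 ± 10.9 and 92.1 ± 15.7 CPM (0.07 ± 0.10). Per1, a clock gene with the same inducer, was at -0.29 ± 0.15. Without the 4 libraries high in thalamic markers, which include control replicates 1 and 3, the list's median was 0.02 and Ddit4 was at -0.08. With thalamic marker levels as a covariate, Ddit4 was at -0.39, Nfkbia at -0.46 and Sgk1 at -0.86. The list's median was not taken in that fit, and the cause of the gap was not tested.

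The 17 tested corticosteroid receptors and regulators had a median of 0.05, with 0 members at an unadjusted p under 0.05 by edgeR. Nr3c1, the glucocorticoid receptor itself, was at 67.4 ± 3.83 CPM in controls, 64.8 ± 9.54 in CSDS and 78.4 ± 13 with exercise (0.08 ± 0.10).

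Immediate early genes had 11 of 45 tested members lower and 0 higher at an unadjusted p under 0.05, beside 1.1% and 3.01% of all genes. Besides Fos, Egr2, Nr4a1 and Arl4d these were Arc, Junb, Dusp1, Dusp5, Maff, Sik1 and Gadd45g, which were named after their values were seen. Arc, a synaptic protein gene, was at -0.64 ± 0.28 and Junb, another AP-1 subunit, at -0.48 ± 0.18. The list median was -0.18 pooled, 0.01 in CSDS and -0.35 with exercise. The mean log2 CPM of the list was 4.26 to 4.51 in controls, 3.94 to 4.51 in CSDS mice and 3.89 to 4.36 in exercised mice. Npas4, a transcription factor specific to neuronal activity, was at 6.52 ± 0.88 CPM in controls, 7.24 ± 2.01 in CSDS and 5.09 ± 1.57 with exercise (-0.10 ± 0.19). Bdnf, a neurotrophin gene induced by activity, was at 0.12 ± 0.12.

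Class II antigen presentation genes were below control for all 8 tested members, with a median of -0.56 (-0.52 in CSDS and -0.55 with exercise). Cd74, the invariant chain, was at 9.02, 11.9, 7.16, 4.46 and 11 CPM in controls, 2.09 to 7.87 CPM in CSDS mice and 3.12 to 7.41 CPM in exercised mice. Control replicates 4 and 5 fell inside the defeated range, and the pooled difference was -0.70 ± 0.27 (adjusted p = 0.998). H2-Ab1, a class II chain, was at -0.76 ± 0.30 and Ciita, the class II transactivator, at -0.78 ± 0.37. With choroid plexus levels as a covariate Cd74 was at -0.47, H2-Ab1 at -0.49 and Ciita at -0.86. Microglia genes had a median of -0.02 over 27 members, with 0 at an unadjusted p under 0.05 by edgeR.

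Choroid plexus genes were below control for all 24 tested members, with a median of -0.70, and of -1.14 without the 4 libraries high in thalamic markers. Only 1, Msx1, a homeobox gene, had an unadjusted p under 0.05. Ttr, the thyroid hormone carrier of this epithelium, ranged from 2408 to 5198 CPM in controls, 51.0 to 7951 CPM in CSDS mice and 26.5 to 6149 CPM in exercised mice. The defeated libraries fell into a high and a low set, and Ttr was above 0 in all of them. Its pooled difference was -0.67 ± 1.08 (adjusted p = 0.998), and ranged from -2.88 with limma voom to -0.26 with choroid plexus levels as a covariate. Thalamic neuron markers had a median of -0.21 pooled, -0.62 in CSDS and 0.17 with exercise. Tnnt1, a troponin gene used as a thalamic marker, was at 14.6 and 33.6 CPM in control replicates 1 and 3, 11.9 and 18.8 CPM in exercise replicates 3 and 6, and at most 2.21 CPM elsewhere.

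**Figure D4:**
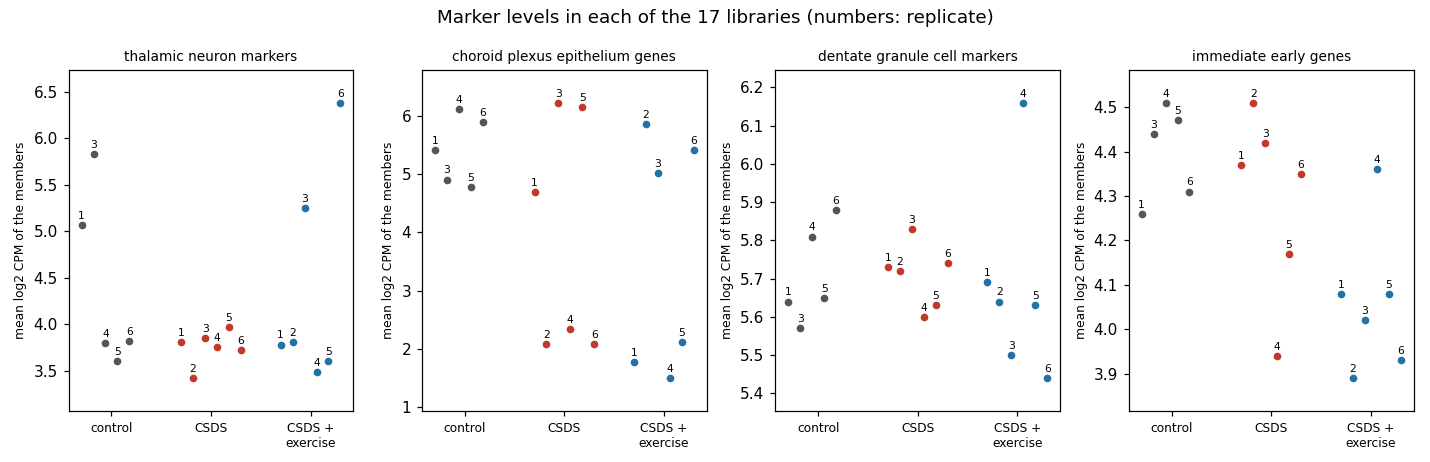
Mean log2 CPM of the tested members of 4 gene lists in each of the 17 libraries, with the replicate number above each point. Thalamic markers stand high in control replicates 1 and 3 and exercise replicates 3 and 6, choroid plexus genes fall below 2.5 in 6 defeated libraries and no control, and immediate early genes reach lowest in exercise replicate 2 (3.89).

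Receptor, neurogenic and interneuron genes were examined next. Grin2b, an NMDA receptor subunit, was at 487 ± 56.8 CPM in controls, 565 ± 51.2 in CSDS and 628 ± 79.7 with exercise (0.29 ± 0.09). Grin2a, its later-maturing relative, was at 265 ± 21.9, 282 ± 27.0 and 356 ± 45.8 CPM (0.25 ± 0.09, with 0.09 ± 0.10 in CSDS and 0.42 ± 0.10 with exercise). These were the 2 of 24 glutamate receptor genes higher at an unadjusted p under 0.05, beside 3.01% of all genes, both with an adjusted p of 0.998. The list median was 0.10, and -0.000404 without the 4 libraries high in thalamic markers, where Grin2b was at 0.22 and Grin2a at 0.23. With thalamic marker levels as a covariate, Grin2b was at 0.26 and Grin2a at 0.22. Among 33 neurogenesis and immature neuron genes 1 was higher at that threshold, Fabp7 (0.71 ± 0.31), a share near that of all genes (3.01%). Dcx, a microtubule protein of new neurons, was at 0.25 ± 0.12, with an unadjusted p of 0.059 by edgeR. It was at 0.11 without those 4 libraries, and at 0.25 with thalamic marker levels as a covariate. By group, Dcx was at 0.08 ± 0.14 in CSDS and 0.43 ± 0.14 with exercise. Among 30 GABAergic interneuron genes Reln and Dlx1 were higher at that threshold, again beside 3.01% of all genes, at 0.32 ± 0.14 and 0.28 ± 0.13. Without the 4 libraries Dlx1 was at 0.16, and with thalamic marker levels as a covariate at 0.27. Dlx1 stood at 26.2 ± 4.23 CPM in CSDS but at 19.7 ± 3.90 CPM with exercise, near the 18.7 ± 3.21 CPM of controls.

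The medians of glial and vascular lists were -0.01 for astrocyte genes, -0.03 for oligodendrocyte and myelin genes, 0.10 for oligodendrocyte precursor genes and -0.13 for endothelial and blood-brain barrier genes. Gfap, the astrocyte filament gene, was at 0.04 ± 0.13 and Mbp, a myelin protein gene, at -0.18 ± 0.14. Vcan, a matrix proteoglycan of precursor cells, was at 0.30 ± 0.10 (0.16 ± 0.11 in CSDS and 0.44 ± 0.11 with exercise). Slco1c1, a thyroid hormone transporter of brain vessels, was at -0.38 ± 0.18, or -0.09 with choroid plexus levels as a covariate. Of 38 collagen genes, Col7a1 (0.84 ± 0.27) and Col6a3 (1.12 ± 0.45) were higher at an unadjusted p under 0.05, beside 3.01% of all genes, while the list median was 0.05. Col7a1 was scarce, with a mean of 0.76 CPM. Without the 4 libraries high in thalamic markers Col7a1 was at 0.58 and Col6a3 at 0.83, and with thalamic marker levels as a covariate at 0.78 and 1.13. Among 33 chromatin genes, whose median was 0.00133, 1 was higher and 1 lower at that threshold, beside 3.01% and 1.1% of all genes. The higher was Tet2, an enzyme that oxidises methylated cytosine (0.32 ± 0.09), and the lower was Dnmt3b (-0.58 ± 0.27). By group, Tet2 was at 0.15 ± 0.10 in CSDS and 0.48 ± 0.10 with exercise.

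Mitochondrially encoded genes were above control for all 13 members, with a median of 0.18 (-0.01 in CSDS and 0.38 with exercise), but at -0.02 after GC correction. The share of counts was taken over every gene whose symbol starts with mt-, not only the 13 listed. It was 2.73% ± 0.833 in controls and 3.04% ± 1.06 in 12 defeated mice, with a two-sided exact permutation p of 0.559. Among the 13, mt-Nd4l, a complex I subunit, was the only member with an unadjusted p under 0.05 (0.88 ± 0.38). By group, mt-Nd4l was at 0.29 ± 0.42 in CSDS and 1.48 ± 0.43 with exercise.

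**Figure D5:**
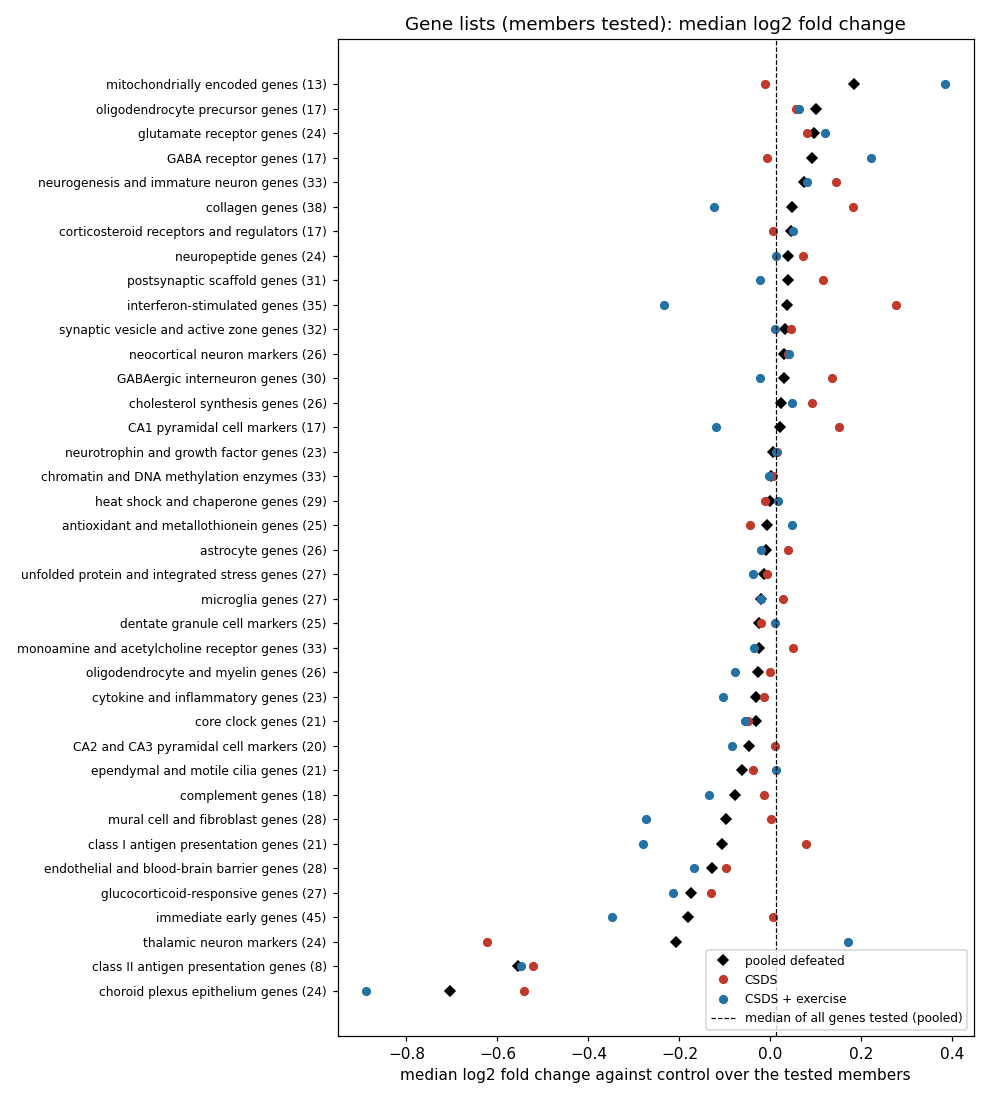
Median log2 fold change against control over the tested members of each of 38 gene lists, pooled (diamonds) and in CSDS and CSDS with exercise (circles), with the number of members tested in brackets and the median of all genes as a dashed line. Choroid plexus (-0.70) and class II (-0.56) genes lie lowest, and thalamic markers differ in sign between the defeated groups; the lists were chosen with earlier results of these data known.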

How the data were processed

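Poly(A) RNA from 18 hippocampi was sequenced from stranded libraries, per the labels' protocols. The authors deposited 1 table of expected counts (estimated counts that need not be whole), not normalized. The submitters' processing notes name fastp, HISAT2, RSEM, GRCm38 and mm10; their versions, the annotation release and the strand setting were not given in the sources used here. RSEM divides reads among genes they match, so near-identical, overlapping and antisense genes are uncertain. Of the nonzero values 22.7% were not whole (tolerance 1e-06), and all were rounded. Of 57180 gene identifiers, 51884 matched a symbol, and those that did not held 0.62% of counts. Gene coordinates from the table are not used.

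Low genes were removed with edgeR 4.0.16 filterByExpr (minimum count 10, minimum total 15) in R 4.3.3. TMM scaling and the quasi-likelihood test followed, with 1 term per group over 17 libraries, and p-values were adjusted over all 16833 genes. Scripts were tested on simulated data. GC content came from GENCODE M21 transcripts (98.1% of genes). CPM are TMM-scaled, and log2 CPM use a prior count of 2. Alternatives were 32 settings, among them DESeq2 1.42.0, limma 3.58.1 voom, other scalings and filters, covariates, a replicate block and leaving out each library. Those without the 4 libraries high in thalamic markers, and with all 18 libraries and GC correction, were chosen after seeing the data.

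The text names the 12 genes per direction with the smallest p, same sign in both defeated groups, a mean of at least 1 CPM and no predicted genes; up to 4 per direction without overlap; up to 3 members of each list; and 12 fixed genes (Bdnf, Fkbp5, Nr3c1, Sgk1, Zbtb16, Fos, Nr4a1, Npas4, Dcx, Gfap, Ttr and Mbp), besides 5 hippocampal field markers. Other names are said to have been chosen after their values were seen. The comparison, its members and the 38 lists were chosen with earlier results of these data known.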

Additional observations from a re-analysis of the deposited data

Results flagged for a closer look

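In 162 groups of 5 or 6 libraries, 12 held a library far from the others by Dixon's criterion, which chance meets in about 1 in 20 groups. Exercise replicate 2 stood high for Malat1 (418 CPM, next library 249), Meg3 (1164 CPM, next 587) and Plpp5 (18.1 CPM, next 14.2), and low for Arhgap25 (2.43 CPM, next 3.67). Control replicate 1 stood high among controls for Malat1 (157 CPM, next 104), Kcnq1ot1 (4.74 CPM, next 3.97) and Plpp5 (13.3 CPM, next 11.1). CSDS replicate 2 was low for Arhgap25 (3.05 CPM, next 4.08). Exercise replicate 5 was high for Nfkbia (25.4 CPM, next 17.5), exercise replicate 4 for the clock gene Nfil3 (11 CPM, next 8.03) and exercise replicate 6 for Mbp (4532 CPM, next 3298). Control replicate 4 was high for Col6a3 (4.94 CPM, next 1.82). Control replicate 2, which the comparison does not use, had a mean of 5.65 log2 CPM over neocortical neuron markers, against at most 5.09 in the other 17 libraries.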

How the results depend on the processing

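Under 32 alternatives the pooled contrast called 0 genes except with DESeq2 (13, all moving the same way in both groups) and without exercise replicate 5, so that leaving out 1 library gave 0 to 1 genes pooled and 0 to 1 moving the same way. Exercise against control had 95 genes with DESeq2, 3 with all 18 libraries, 1 with a thalamic covariate and 0 to 24 leaving out 1 library (24 without exercise replicate 4). Exercise against CSDS had 335 with DESeq2, 1 with voom, 2 without a filter, 1 with all 18 libraries and GC correction, and 0 to 1529 leaving out 1 library (1529 without exercise replicate 4, 81 without CSDS replicate 5). Genes without overlap numbered 11 without a filter, 111 without the 4 libraries high in thalamic markers (fewer libraries) and 4 to 21 leaving out 1 library. With the replicate number as a block 0 genes were called and 416 pooled genes had an unadjusted p under 0.05, against 691. Deviations of same-numbered libraries from their group means correlated at -0.41 to 0.27. Differently numbered libraries were not compared, so whether a shared number marks a shared origin was not tested. The pooled count at an unadjusted p under 0.05 was 1422 without a filter, 1056 without the 4 libraries and 1223 without exercise replicate 4. Under plain library size scaling it split into 380 higher and 289 lower, with 1 CPM in 5 libraries as a filter into 304 and 284, with no filter into 649 and 773, and without exercise replicate 6 into 391 and 418; leaving out other libraries gave 133 to 571 lower. The direction turned for Arhgap25 (-0.31 with all 18 libraries, -0.32 also GC corrected), Nr3c1 (-0.11 and -0.10), Fkbp5 (-0.030 with a choroid plexus covariate) and Gfap (-0.037 with a thalamic and -0.10 with a choroid plexus covariate, -0.023 without the 4 libraries, and -0.045 to 0.126 leaving out 1 library); the cause was not tested. Scaling and GC correction moved the median of all genes by at most 0.03 in any comparison with control. Depth limits genes near 1 CPM, such as Pantr2, Egr2, Ciita and Col7a1.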
